A study of Mus musculus with 6 samples.

Results

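The genes of the mammalian circadian clock were followed by RNA-sequencing (RNA-seq) in Ocy454, a mouse osteocytic cell line. The set held 10 genes chosen by symbol: Per1, Per2, Per3, Cry1, Cry2, Nr1d1, Nr1d2, Dbp, Arntl and Clock. All 10 were found among the 39179 genes listed. Cells were expanded at 33 °C, held at 37 °C for 14 days, given fresh medium 24 h before collection, and then treated for 4 h. The labels give the vehicle as PBS with 25 mM HCl, whereas the study's methods name DMSO as the solvent of compound stocks for cell work, so the solvent each group received is not settled. The PTH group received 1 nM PTH 1-34 (the amino-terminal part of parathyroid hormone) and the third group received 0.5 µM YKL-05-093, a small molecule inhibitor of salt-inducible kinases (SIKs). Each of the 3 groups had 2 libraries, and every library was collected at the same time after treatment, so the phase and rhythm of the clock were not measured. The labels do not say whether libraries of a group came from separate cultures, so each p-value measures only the spread between these libraries, which may be technical.

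The clock is a transcriptional feedback loop that runs in most cell types. ARNTL (also called BMAL1) and CLOCK bind E-box sequences together and activate the Per and Cry genes, whose proteins return to the nucleus and block their own activators. In a second loop the REV-ERB receptors, encoded by Nr1d1 and Nr1d2, repress Arntl while ROR receptors activate it. Dbp is a transcription factor and an output of the loop that acts through D-box sequences, and NFIL3 represses through the same sites. PTH raises cyclic AMP, and cyclic AMP is a known input to Per1 transcription.

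The read totals behind the RPKM values, recovered from those values, were 17505798 to 27983585 per library, with 99.66% to 99.69% on listed genes. The study's methods give a higher average number of read pairs per sample. The 10 clock genes had between 60 and 1694 reads per library. All 10 passed the filter on low values (at least 0.5 RPKM, reads scaled by gene length and library depth, in at least 2 libraries), as did 14264 genes in all. The vehicle libraries differed from each other more than the treated pairs did. Over all genes that passed, the median absolute log2 difference between replicates reached 0.333 in the vehicle pair, while the PTH pair had 0.108 and the YKL-05-093 pair 0.103. Vehicle replicate 1 lay above vehicle replicate 2 for 10 of the 10 clock genes, against 54.7% of all genes that passed, and 7 of the 10 differed by more than the vehicle median. The part of this gap in the comparisons with vehicle was not tested separately, so values without each vehicle library are given beside the results it touches. Bone lineage genes were present, with Col1a1 at 259 to 430 RPKM, Alpl at 61.7 to 88.9 RPKM and the PTH receptor Pth1r at 33.4 to 70.7 RPKM. Of the osteocyte genes, Pdpn stood at 53.1 to 171 RPKM and Phex at 0.764 to 4.93 RPKM, while Dmp1, Sost, Mepe and Fgf23 were low, with Dmp1 at 0.376 to 1.155 RPKM, Sost at no more than 0.0519 RPKM, Mepe at no more than 0.136 RPKM and Fgf23 at no more than 0.0544 RPKM. Of the markers of other cell types, Cdh5 and Myod1 were listed at 0 in every library and Ptprc did not exceed 0.0263 RPKM. Ctsk, a protease best known from osteoclasts, stood at 74.1 to 94.7 RPKM. The osteoclast lineage genes Acp5 and Csf1r did not exceed 0.0307 and 0.133 RPKM. Some markers moved with PTH. Pdpn had 53.1 and 71.3 RPKM in vehicle libraries, 171 and 163 RPKM after PTH and 95.8 and 93.1 RPKM after YKL-05-093. Pth1r had 52.1 and 63.4 RPKM, 38.5 and 33.4 RPKM, and 61.4 and 70.7 RPKM in the same order. The osteoblast transcription factor Sp7 had 46.0 and 45.5 RPKM in vehicle libraries, 12.2 and 11.1 RPKM after PTH and 22.4 and 29.6 RPKM after YKL-05-093. Runx2, which acts upstream of Sp7, had 19.5 and 13.01 RPKM, 7.87 and 7.02 RPKM, and 11.6 and 12.6 RPKM in the same order. The osteocalcin gene Bglap was highest after PTH, with 6.61 and 11.5 RPKM, 27.1 and 25.3 RPKM, and 11.9 and 11.4 RPKM, and so was the cartilage collagen gene Col2a1, with 0.625 and 0.577 RPKM, 1.71 and 1.54 RPKM, and 0.730 and 0.771 RPKM. The part of these marker differences in the clock gene values was not tested.

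All 10 clock genes were expressed in vehicle-treated cells, at mean levels from 1.54 RPKM to 13.97 RPKM. Cry1 was the most abundant, followed by Clock, Nr1d2 and Arntl, with Per1, Dbp, Nr1d1, Per3, Cry2 and Per2 below them. Clock and Nr1d2 overlapped between libraries, as did Per1 and Dbp, and so did each neighbouring pair from Nr1d1 down to Per2, so the order within those stretches is not resolved. The order of mean RPKM differed after treatment. In PTH-treated cells Arntl overlapped Clock, and Nr1d1 was the lowest gene. In YKL-05-093-treated cells Per1 stood above Arntl in both libraries and Per2 was the lowest gene. These levels are per gene length. The lengths used by the authors for Arntl and Clock were 2884 and 7455 bases, recovered from the values. Both are well short of the 7523 and 13727 exonic bases of a later annotation. This bears on their ranks and not on their changes between groups.

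**Figure D1:**
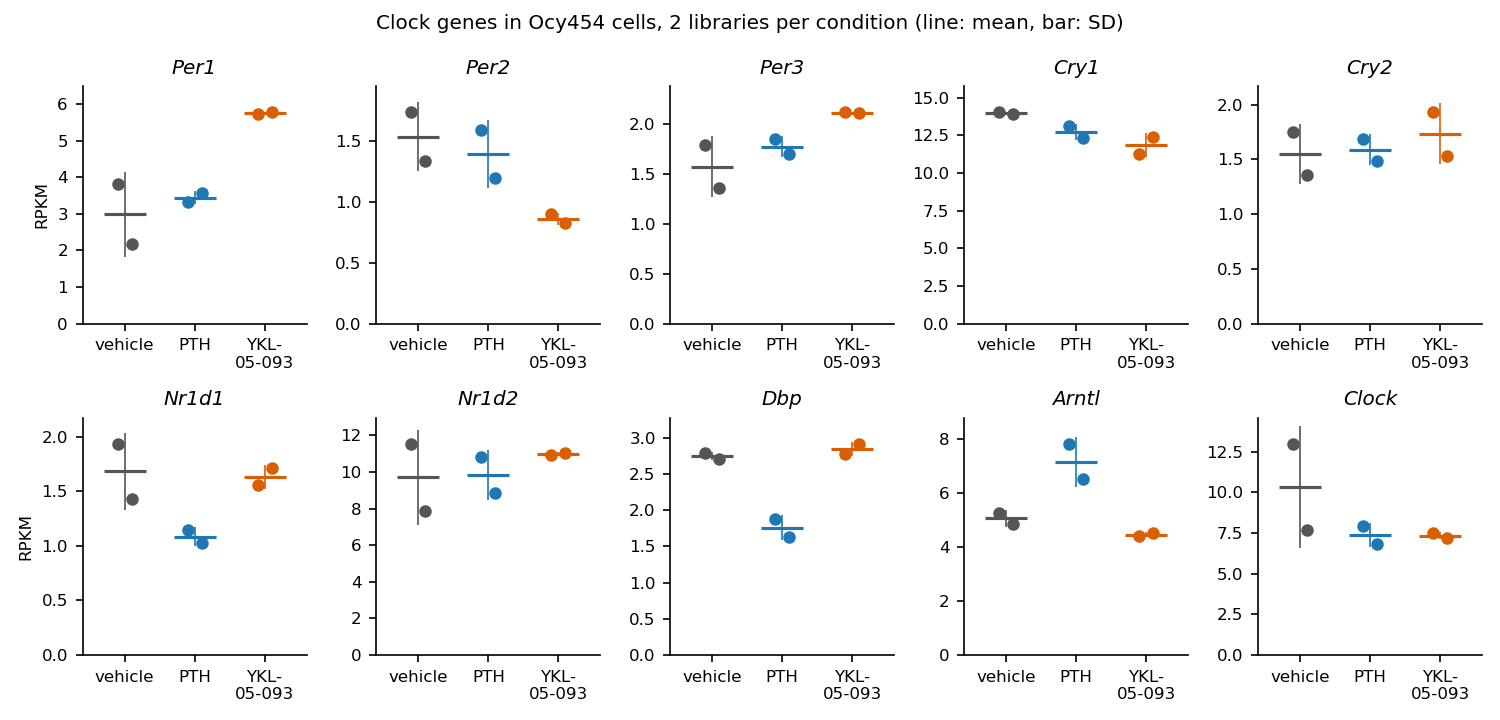
RPKM (y axis, linear from 0) of each of the 10 clock genes in vehicle, PTH and YKL-05-093 libraries (x axis). Points are the 2 libraries of a group, horizontal lines their mean and vertical bars the SD. Per1 stands at 5.71 and 5.77 RPKM after YKL-05-093, Arntl at 7.82 and 6.51 RPKM after PTH, and the vehicle points of Per1, Nr1d2 and Clock lie far apart.

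In the main fits clock genes passed an adjusted p of 0.05 only between the treatments, whose replicate pairs were closer than the vehicle pair. For Per1 and Per2, YKL-05-093 differed more from vehicle (log2 differences 0.97 and -0.76) than from PTH, but with larger standard errors. After PTH, Arntl and Per2 were higher and Dbp and Per1 lower than after YKL-05-093, with log2 differences of 0.67, 0.62, -0.67 and -0.73. These 4 of 10 clock genes had a Benjamini-Hochberg adjusted p under 0.05 in limma, against 10% of all genes tested in that comparison. The other 6 did not pass. The unadjusted p was under 0.05 for 6 of the 10, against 22.3% of all genes. None of the 10 also exceeded a 2-fold difference, in limma or in voom on the recovered reads, a threshold that together with the adjusted p was passed by 1.21% of all genes. The libraries of the groups did not overlap for 7 of 10 clock genes, against 50% of all genes, 2 being higher and 5 lower after PTH. The median absolute log2 difference was 0.397 over the clock genes and 0.124 over all genes tested. With 2 libraries against 2, an exact permutation test of a single gene cannot give a two-sided p below 0.333, so these calls rest on limma's estimate of the spread, which borrows from all genes. In bulk RNA, fewer cells expressing a gene and less RNA per cell cannot be told apart.

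Those 4 calls depended on that estimate. Leaving out PTH replicate 1 raised the adjusted p to 0.144 for Per1, 0.361 for Per2, 0.201 for Dbp and 0.205 for Arntl. Leaving out PTH replicate 2 gave 0.132, 0.222, 0.276 and 0.152 in the same order. Per1 passed without YKL-05-093 replicate 1 (adjusted p = 0.0337) and without YKL-05-093 replicate 2 (0.0424), and the other 3 did not, at 0.200 and 0.282 for Per2, 0.127 and 0.181 for Dbp, and 0.105 and 0.104 for Arntl. In each such fit the lone library is taken to vary like the remaining pair. A single fit of all 6 libraries, in which the wider vehicle pair enters the spread, gave adjusted p-values of 0.327 for Per1, 0.309 for Per2, 0.115 for Dbp and 0.0988 for Arntl. The directions were the same in each of those fits.

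Against vehicle, no clock gene passed in either treatment, with limma or with voom on the recovered reads. In PTH against vehicle 0 of 10 were called at an adjusted p under 0.05 and more than 2-fold, against 1.91% of all genes, and 0 of 10 at the adjusted p alone, against 2.19%. The unadjusted p was under 0.05 for 3 clock genes in limma, Arntl at higher and Nr1d1 and Dbp at lower values after PTH, against 13.3% of all genes. Libraries did not overlap for 4 of 10, against 43.1% of all genes. The median absolute log2 difference was 0.210 for the clock genes and 0.200 for all genes.

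In YKL-05-093 against vehicle 0 of 10 clock genes were called by either rule, against 0.666% of all genes by each. The unadjusted p was under 0.05 for 2 of them, Per1 at higher and Per2 at lower values after YKL-05-093, against 8.66% of all genes. Libraries did not overlap for 6 of 10, against 37.8% of all genes, and the median absolute log2 difference was 0.220, against 0.178 over all genes. Both comparisons share the vehicle libraries and are therefore not independent of each other. Calls against vehicle moved with the choice of vehicle library. Without vehicle replicate 1, Per1 passed in PTH against vehicle (log2 difference 0.64, adjusted p = 0.0300) and was called in YKL-05-093 against vehicle (1.37, adjusted p = 0.0487). Without vehicle replicate 2, Nr1d1 (-0.78, adjusted p = 0.0387), Clock (-0.81, adjusted p = 0.0122) and Dbp (-0.64, adjusted p = 0.0486) passed in PTH against vehicle. In YKL-05-093 against vehicle the same omission brought Per1 (0.58, adjusted p = 0.0317), Per2 (-0.93, adjusted p = 0.0411) and Clock (-0.81, adjusted p = 0.0267) past the threshold.

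**Figure D2:**
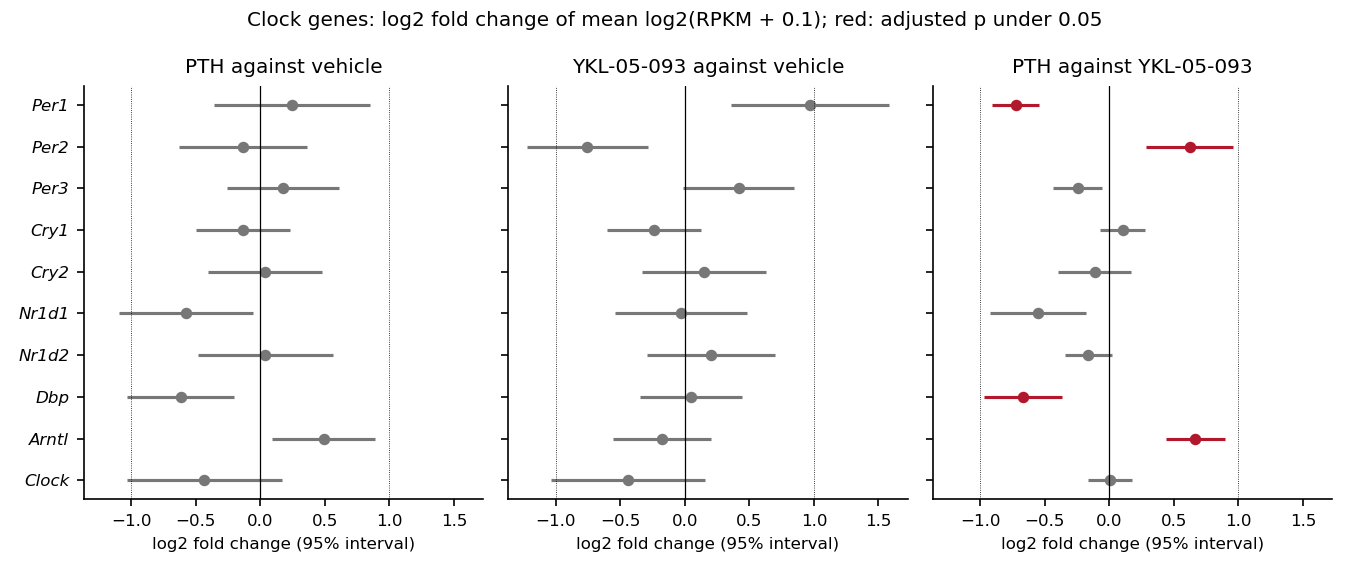
Log2 fold change of each clock gene (x axis; points, with 95% intervals from limma as lines) in the 3 comparisons, on log2(RPKM + 0.1). Red marks an adjusted p under 0.05 and dotted lines a 2-fold change. Only the PTH against YKL-05-093 panel holds red points, for Per1, Per2, Dbp and Arntl, and none of them reaches a dotted line.

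Per1, a repressor of the core loop and the period gene known for rapid induction by cyclic AMP, had 3.81 and 2.17 RPKM in the vehicle libraries, 3.31 and 3.56 RPKM after PTH, and 5.71 and 5.77 RPKM after YKL-05-093. Both YKL-05-093 libraries lay above the other 4, whereas the PTH libraries fell between the vehicle libraries. Per1 was lower after PTH than after YKL-05-093 by a log2 difference of -0.73 ± 0.087 (SE; limma adjusted p = 2.61e-05). Against vehicle the difference was 0.97 ± 0.26 for YKL-05-093 (95% interval 0.36 to 1.58; adjusted p = 0.248) and 0.25 ± 0.26 for PTH (adjusted p = 0.764). The gene lies on the plus strand at chr11:69095217-69109960 (GRCm38).

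Its RefSeq promoters (GRCm38.p6, 250 bases before to 50 bases after each start) are shown because PTH acts through cyclic AMP and because Per1 had the widest gap between treatments. Capitals mark matches on either strand. In promoter 1, at chr11:69098699-69098998 on the plus strand, these are TGACG (the shorter form of the cyclic AMP response element), the E-box CACGTG and, as TGACCT, the core AGGTCA that ROR and REV-ERB receptors recognise. In promoter 2, at chr11:69099902-69100201 on the plus strand, the match is a single TGACG.
Per1 promoter 1: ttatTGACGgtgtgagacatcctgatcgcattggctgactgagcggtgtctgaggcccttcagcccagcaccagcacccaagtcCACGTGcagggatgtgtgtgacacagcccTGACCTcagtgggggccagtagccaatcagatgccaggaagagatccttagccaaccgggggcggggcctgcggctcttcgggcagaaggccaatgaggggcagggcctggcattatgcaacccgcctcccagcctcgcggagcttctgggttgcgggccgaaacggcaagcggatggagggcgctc
Per1 promoter 2: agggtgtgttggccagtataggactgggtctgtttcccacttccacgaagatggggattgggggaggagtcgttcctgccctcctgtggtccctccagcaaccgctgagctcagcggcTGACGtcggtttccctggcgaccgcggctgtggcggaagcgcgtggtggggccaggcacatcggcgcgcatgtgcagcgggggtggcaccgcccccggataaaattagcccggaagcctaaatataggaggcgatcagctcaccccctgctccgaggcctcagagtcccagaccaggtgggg
CACGTG occurs in 7.15% of the 32851 promoters of the table, TGACG in 20.8% and AGGTCA in 16.3%. The longer element TGACGTCA, which contains TGACG on both strands, occurs in 1.79% of all promoters and in none of the 13 promoters found for 9 of the 10 clock genes. A match of letters is a description and not evidence of binding.

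Per2, a period repressor like Per1, had 1.74 and 1.34 RPKM in vehicle libraries, 1.59 and 1.20 RPKM after PTH, and 0.899 and 0.829 RPKM after YKL-05-093. Here the YKL-05-093 libraries were the lowest of the 6, opposite to their place for Per1, and the PTH and vehicle libraries overlapped. Per2 was higher after PTH than after YKL-05-093 by 0.62 ± 0.16 on the log2 scale (adjusted p = 0.0184). Against vehicle the log2 difference was -0.76 ± 0.20 for YKL-05-093 (95% interval -1.23 to -0.29; adjusted p = 0.24) and -0.13 for PTH (adjusted p = 0.849). Within a library the ratio of Per1 to Per2 RPKM was 2.19 and 1.62 in vehicle-treated cells, 2.08 and 2.97 with PTH, and 6.36 and 6.96 after YKL-05-093. This ratio was chosen after the values were seen and was not tested. Per2 lies on the minus strand at chr1:91415982-91459324.

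Per3, the period gene least needed for rhythm, had 1.79 and 1.35 RPKM in vehicle libraries, 1.84 and 1.69 RPKM after PTH, and 2.11 RPKM in both libraries after YKL-05-093. The YKL-05-093 libraries were again the highest, as for Per1, but the differences did not pass: 0.42 on the log2 scale for YKL-05-093 against vehicle (adjusted p = 0.599), and -0.24 for PTH against YKL-05-093 (adjusted p = 0.109). The gene spans chr4:151003652-151044665. Its promoter, at chr4:151044616-151044915 on the minus strand, is shown because, of the 9 clock genes with a promoter in the table, it alone holds the D-box, searched as TTATGTAA or TTACGTAA, through which DBP and NFIL3 act. It holds 2 copies, in capitals, while 1.06% of all promoters hold any.
Per3 promoter: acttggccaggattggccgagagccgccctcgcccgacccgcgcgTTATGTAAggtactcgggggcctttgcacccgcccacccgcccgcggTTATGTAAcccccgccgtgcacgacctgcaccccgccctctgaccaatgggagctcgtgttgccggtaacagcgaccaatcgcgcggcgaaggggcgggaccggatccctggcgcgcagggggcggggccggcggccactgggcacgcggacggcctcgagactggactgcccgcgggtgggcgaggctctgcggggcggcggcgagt

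Cry1, a cryptochrome that represses ARNTL and CLOCK, had 14.0 and 13.9 RPKM in vehicle libraries, 13.1 and 12.4 RPKM after PTH, and 11.3 and 12.4 RPKM after YKL-05-093. All treated libraries lay below both vehicle libraries, and Cry1 had the closest vehicle pair of the 10 genes. The log2 differences were small and did not pass: -0.13 for PTH against vehicle (adjusted p = 0.788), -0.24 for YKL-05-093 against vehicle (adjusted p = 0.793), and 0.10 for PTH against YKL-05-093 (95% interval -0.068 to 0.28; adjusted p = 0.513). Cry2, its paralogue, had 1.75 and 1.36 RPKM in vehicle-treated cells, 1.69 and 1.49 RPKM with PTH and 1.93 and 1.54 RPKM after YKL-05-093. The 3 groups overlapped for Cry2, and its log2 differences lay between -0.11 and 0.15. Both genes hold TGACG in their promoters, and Cry1 also holds CACGTG. Cry1 lies at chr10:85131700-85185064 and Cry2 at chr2:92403646-92434043, both on the minus strand. Cry2 shares 295 exonic bases with D930015M05Rik on the opposite strand, a gene with at most 0.289 RPKM.

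Nr1d1, which encodes the haem receptor and repressor REV-ERB alpha, had 1.94 and 1.43 RPKM in vehicle libraries, 1.146 and 1.03 RPKM after PTH, and 1.56 and 1.71 RPKM after YKL-05-093. The PTH libraries were the lowest, with no overlap with either other group, at 76 and 60 reads. The log2 difference was -0.58 ± 0.22 against vehicle (95% interval -1.09 to -0.061; adjusted p = 0.316) and -0.55 ± 0.18 against YKL-05-093 (adjusted p = 0.0593), and neither passed. YKL-05-093 differed from vehicle by -0.027 (95% interval -0.54 to 0.48), a sign that turned under other scalings. Nr1d1, at chr11:98767932-98775333 on the minus strand, shares 263 exonic bases with Thra on the opposite strand, and the strand setting of the counting is not stated, so reads of the pair may not be fully separated. Thra, at 30.1 and 32.03 RPKM after PTH and 37.3 and 39.1 RPKM after YKL-05-093, was itself lower after PTH than after YKL-05-093 by a log2 difference of -0.30 (adjusted p = 0.00791), and its part in the Nr1d1 values was not tested.

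Nr1d2, encoding REV-ERB beta, had 11.5 and 7.87 RPKM in vehicle, 10.8 and 8.87 RPKM after PTH and 10.9 and 11.05 RPKM after YKL-05-093. The treated libraries all fell between the vehicle libraries. Its log2 differences were 0.039 for PTH and 0.20 for YKL-05-093 against vehicle, with adjusted p-values of 0.967 and 0.87, and -0.16 between the treatments (adjusted p = 0.297). In every library Nr1d2 had more RPKM than Nr1d1. It lies on the minus strand at chr14:18204054-18239127.

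Dbp, a PAR-domain bZIP activator whose mRNA follows ARNTL and CLOCK activity in many tissues, had 2.78 and 2.70 RPKM in vehicle libraries, 1.88 and 1.63 RPKM after PTH, and 2.77 and 2.91 RPKM after YKL-05-093. The PTH libraries lay below all 4 others, and the vehicle and YKL-05-093 libraries overlapped. Dbp was lower after PTH than after YKL-05-093 by -0.67 ± 0.14 on the log2 scale (adjusted p = 0.00553). Against vehicle the log2 difference was -0.62 ± 0.18 for PTH (95% interval -1.03 to -0.20; adjusted p = 0.173) and 0.048 for YKL-05-093 (95% interval -0.35 to 0.44; adjusted p = 0.967). Dbp, at chr7:45705088-45710203 on the plus strand, shares 539 exonic bases with Sphk2 on the opposite strand. Sphk2 differed by -0.069 between the treatments (adjusted p = 0.743), with 3.91 and 3.54 RPKM after PTH and 3.79 and 4.03 RPKM after YKL-05-093. The promoter of Dbp, at chr7:45704997-45705296 on the plus strand, is shown because Dbp, like Per1, was lower after PTH than after YKL-05-093. None of the letters searched is in this window.
Dbp promoter: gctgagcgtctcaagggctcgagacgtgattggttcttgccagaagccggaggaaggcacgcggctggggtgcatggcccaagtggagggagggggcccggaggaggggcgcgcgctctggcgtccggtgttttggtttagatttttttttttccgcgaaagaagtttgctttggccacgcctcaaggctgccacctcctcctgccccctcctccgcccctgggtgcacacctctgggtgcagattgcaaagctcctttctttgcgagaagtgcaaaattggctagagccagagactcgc

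Arntl, the activator that pairs with CLOCK, had 5.27 and 4.84 RPKM in vehicle libraries, 7.82 and 6.51 RPKM after PTH, and 4.39 and 4.51 RPKM after YKL-05-093. The PTH libraries were the highest of the 6 and the YKL-05-093 libraries the lowest, so the 3 groups were separate. Arntl was higher after PTH than after YKL-05-093 by 0.67 ± 0.11 on the log2 scale (adjusted p = 0.00056). Against vehicle the log2 difference was 0.49 ± 0.17 for PTH (95% interval 0.089 to 0.89; adjusted p = 0.27) and -0.18 for YKL-05-093 (95% interval -0.56 to 0.20; adjusted p = 0.852). The gene lies on the plus strand at chr7:113207465-113314126, and 33 of its exonic bases are shared with an antisense gene, Gm45355. Its promoter 2, at chr7:113207261-113207560 on the plus strand, is shown because REV-ERB and ROR receptors are known to act on Arntl through AGGTCA elements. AGGTCA occurs in 4 of the 13 promoters found for 9 clock genes, against 16.3% of all promoters. Those 4 belong to Per1, Nr1d2, Arntl and Clock, and promoter 1 of Arntl does not hold it. The single match in promoter 2, in capitals, begins 31 bases after the start.
Arntl promoter 2: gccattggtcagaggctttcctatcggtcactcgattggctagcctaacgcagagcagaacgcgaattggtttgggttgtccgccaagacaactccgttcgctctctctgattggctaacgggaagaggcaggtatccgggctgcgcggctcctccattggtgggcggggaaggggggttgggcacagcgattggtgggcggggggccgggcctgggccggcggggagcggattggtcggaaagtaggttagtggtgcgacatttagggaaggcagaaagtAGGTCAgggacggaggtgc

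Within a library the ratio of Arntl to Dbp RPKM was 1.89 and 1.79 in vehicle-treated cells, 4.16 and 3.98 with PTH, and 1.59 and 1.55 after YKL-05-093. The ratio stood highest in the PTH libraries, and, like the ratio of Per1 to Per2, it was chosen after the values were seen and has no test.

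**Figure D3:**
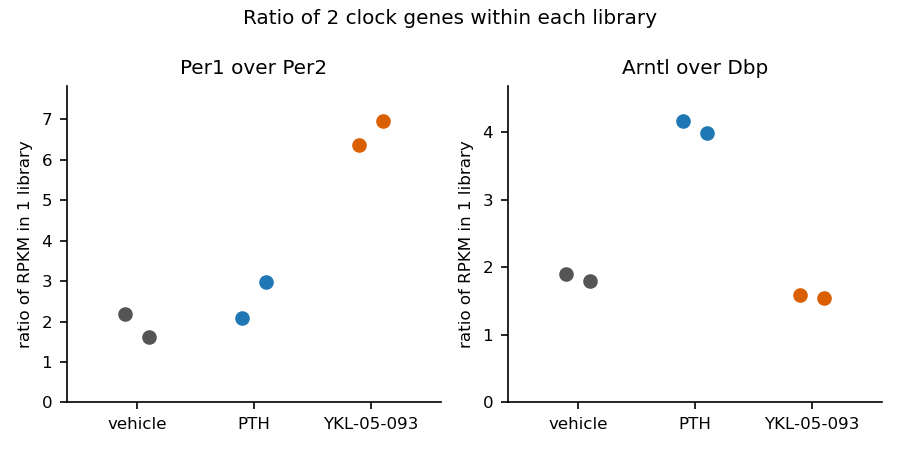
Ratio of RPKM (y axis, linear from 0) of Per1 over Per2 (left) and of Arntl over Dbp (right) in each library (points) of the 3 groups (x axis). Per1 over Per2 is 6.36 and 6.96 after YKL-05-093 and at most 2.97 elsewhere, and Arntl over Dbp is 4.16 and 3.98 after PTH and at most 1.89 elsewhere.

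Clock, the partner of ARNTL, had 12.98 and 7.68 RPKM in vehicle libraries, 7.92 and 6.84 RPKM after PTH, and 7.50 and 7.18 RPKM after YKL-05-093. Vehicle replicate 1 stood alone above the other 5 libraries. The log2 difference was -0.44 for each treatment against vehicle, with adjusted p-values of 0.562 for PTH and 0.756 for YKL-05-093, and 0.0037 between the treatments (95% interval -0.17 to 0.17). The gene lies on the minus strand at chr5:76209868-76304792. CLOCK's paralogue Npas2 was low, with 0.443 and 0.382 RPKM in vehicle, 0.670 and 0.594 RPKM after PTH and 0.383 and 0.526 RPKM after YKL-05-093. The PTH libraries of Npas2 were the highest, at a log2 difference of 0.51 from vehicle. Npas2 passed the filter only through treated libraries, so its tests against vehicle are not read here. Arntl2, the paralogue of Arntl, stayed between 1.01 and 1.35 RPKM in all 6 libraries.

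A wider list of 25 clock genes, holding paralogues, ROR receptors, D-box factors, further repressors, kinases, ubiquitin pathway genes and outputs, was also read, and 21 of them passed the filter. In PTH against YKL-05-093, 7 of the 21 had an adjusted p under 0.05, against 10% of all genes, and all 7 were lower after PTH. In the same comparison 0 of 21 exceeded 2-fold as well, against 1.21%, and 10 of 21 had an unadjusted p under 0.05, against 22.3%. In PTH against vehicle 1 of 21 was called (lower), against 1.91% of all genes, and in YKL-05-093 against vehicle 1 of 21 (higher), against 0.666%. The median log2 differences of the 21 were -0.12, -0.0067 and 0.057 in those comparisons, in that order, against 0.014, -0.031 and -0.042 over all genes tested. The median absolute log2 differences were 0.224, 0.156 and 0.123, against 0.124, 0.200 and 0.178 over all genes.

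Nfil3, the repressor that competes with DBP at D-boxes, had 16.4 and 17.04 RPKM in vehicle libraries, 20.1 and 18.99 RPKM after PTH, and 36.0 and 33.1 RPKM after YKL-05-093. The 3 groups did not overlap. Nfil3 rose after YKL-05-093 by 1.04 ± 0.16 on the log2 scale (adjusted p = 0.0459) and was lower after PTH than after YKL-05-093 by a log2 difference of -0.82 (adjusted p = 1.70e-06). The call against vehicle is marginal: the adjusted p was 0.0571 without vehicle replicate 1, 1.00 without YKL-05-093 replicate 1, where the log2 difference was 0.98, and 0.605 without YKL-05-093 replicate 2. With all libraries kept the call also ended at a pseudocount of 0.01 (0.0539) or 1 (0.0536), with the filter at 0.1 RPKM (0.0638) or none (0.177), and with a prior variance that followed mean RPKM on the log scale (0.105), so that 8 of 14 alternatives ended it. The difference between treatments passed without either YKL-05-093 library and missed without PTH replicate 1 (0.144) or PTH replicate 2 (0.134).

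Gm129, now named Ciart and encoding a repressor that acts on ARNTL and CLOCK, had 3.63 and 4.86 RPKM in vehicle libraries, 1.92 and 1.51 RPKM after PTH, and 2.83 and 2.43 RPKM after YKL-05-093. Both treated groups lay below vehicle, the PTH libraries furthest. Gm129 fell after PTH by 1.25 ± 0.22 on the log2 scale (adjusted p = 0.0324), and the log2 difference was -0.66 after YKL-05-093 (adjusted p = 0.36). The PTH call was lost without PTH replicate 1 (adjusted p = 0.302) or PTH replicate 2 (0.617). With all libraries kept it was also lost with values centred on the median gene (0.0737), with a prior variance that followed mean RPKM on the log scale (0.0878) and with no filter (0.190), and a pseudocount of 1 gave a log2 difference of -0.94, under 2-fold. Between the treatments the log2 difference was -0.60 (adjusted p = 0.0268).

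Usp2, a deubiquitinase that acts on clock proteins, had 0.452 and 0.442 RPKM in vehicle libraries, 0.582 and 0.797 RPKM after PTH, and 1.19 and 1.21 RPKM after YKL-05-093. The groups were separate, in the order vehicle, PTH, YKL-05-093. Both vehicle libraries were under 0.5 RPKM, so Usp2 passed the filter only through treated libraries. Its log2 difference was 1.25 for YKL-05-093 against vehicle, and its tests against vehicle are therefore not read here. Between treatments, where every library was above 0.5 RPKM, the log2 difference was -0.73 for PTH against YKL-05-093 (adjusted p = 0.014). Usp2 shares 200 exonic bases with genes on the opposite strand.

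The other 4 genes that passed between treatments differed by smaller amounts. Tef, a relative of Dbp, had 10.99 and 10.5 RPKM after PTH and 13.7 and 13.4 RPKM after YKL-05-093 (log2 difference -0.33, adjusted p = 0.00356). Rora, a ROR receptor, had 1.80 and 1.86 RPKM after PTH and 2.36 and 2.35 RPKM after YKL-05-093 (-0.35, adjusted p = 0.0115). For both genes the vehicle libraries were wide, at 12.9 and 9.79 RPKM for Tef and 2.14 and 1.02 RPKM for Rora. Nampt, the NAD salvage enzyme and an output of the loop, had 38.8 and 34.5 RPKM in vehicle, 29.3 and 26.3 RPKM after PTH and 37.5 and 36.2 RPKM after YKL-05-093 (PTH against YKL-05-093, -0.41, adjusted p = 0.000888). The PTH libraries of Nampt were the lowest, while vehicle and YKL-05-093 overlapped. Gsk3b, a kinase of clock proteins, had 14.5 and 8.03 RPKM in vehicle, 8.10 and 8.17 RPKM after PTH and 10.01 and 9.44 RPKM after YKL-05-093 (-0.25, adjusted p = 0.0218). Leaving out any of the 4 treated libraries ended the calls of Tef, Rora, Nampt, Gsk3b, Usp2 and Gm129 between treatments, at adjusted p-values that reached 0.221, 0.243, 0.208, 0.289, 0.301 and 0.397. A single fit of all 6 libraries also ended those calls, at adjusted p-values of 0.653, 0.963, 0.337, 0.9996, 0.206 and 0.369 in that order. They were lost too with no filter and with a prior variance that followed mean RPKM on the log scale. Nfil3 passed between treatments in the single fit, with no filter and with that prior variance, but not without PTH replicate 1 or PTH replicate 2. Rorb was under the filter, with at most 4 reads per library.

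**Figure D4:**
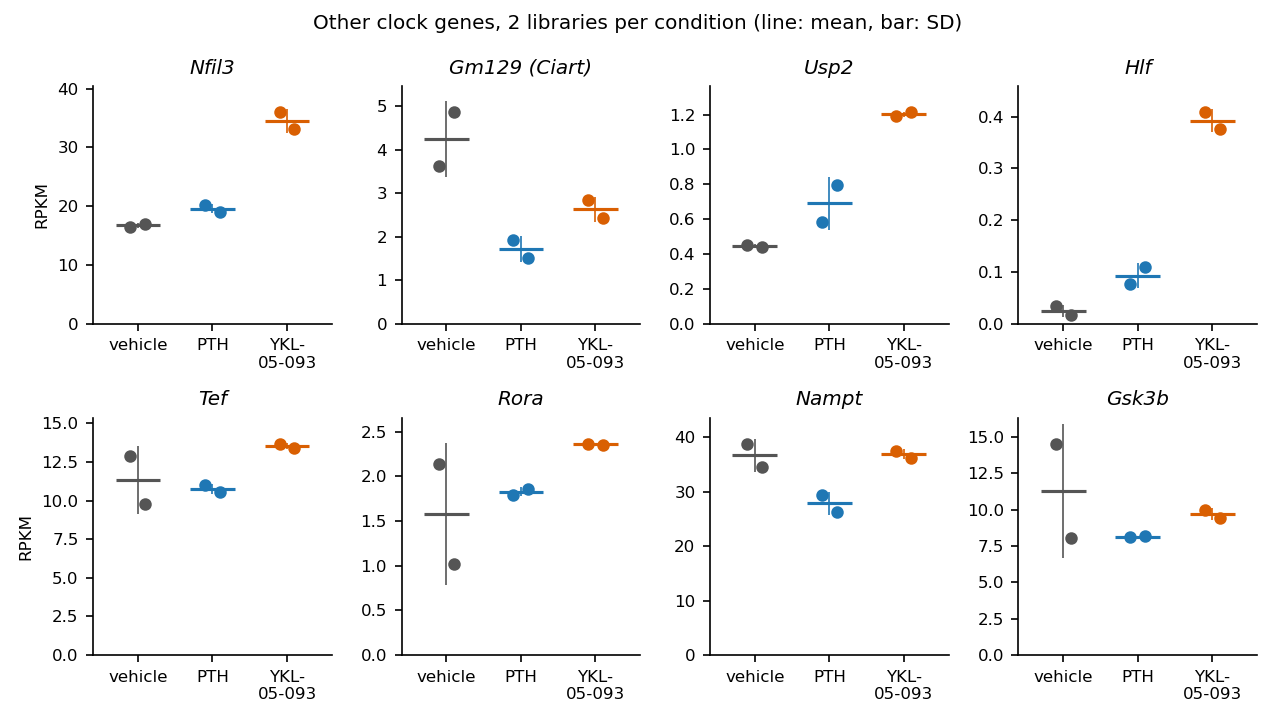
RPKM (y axis, linear from 0) of 8 further clock genes in vehicle, PTH and YKL-05-093 libraries (x axis). Points are the 2 libraries of a group, horizontal lines their mean and vertical bars the SD. Nfil3, Usp2 and Hlf are highest after YKL-05-093, with Nfil3 at 36.0 and 33.1 RPKM, and Gm129 is lowest after PTH, at 1.92 and 1.51 RPKM.

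Hlf, the remaining PAR-domain bZIP gene and a relative of Dbp and Tef, was under the filter and is named here after its values were seen. It had 5 and 4 reads in the vehicle libraries, 14 and 18 in the PTH libraries, and 71 and 67 in the YKL-05-093 libraries, or 0.0333 and 0.0167, 0.0756 and 0.110, and 0.408 and 0.377 RPKM. The groups were separate, and the mean RPKM was 15.7 times the vehicle mean after YKL-05-093 and 3.71 times after PTH, both ratios resting on those few vehicle reads. Hlf was not tested at the main filter. It passed the filter at 0.1 RPKM only through treated libraries, so its test at that setting is not read here. Dbp, of the same family, stood at a log2 difference of 0.048 from vehicle after YKL-05-093.

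**Figure D5:**
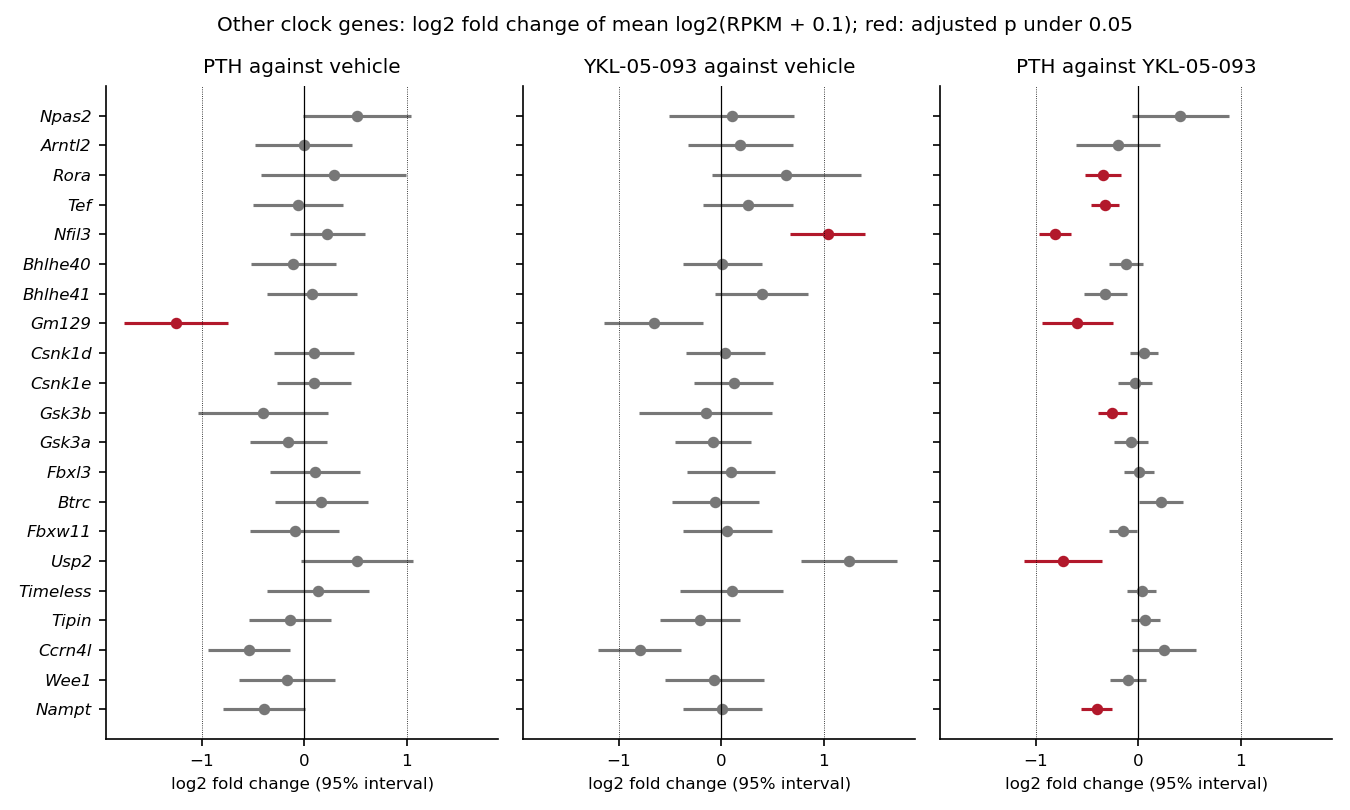
Log2 fold change (x axis; points, with 95% intervals from limma as lines) of the 21 further clock genes that passed the filter, in the 3 comparisons, on log2(RPKM + 0.1). Red marks an adjusted p under 0.05 and dotted lines a 2-fold change. Red points are Gm129 at -1.25 in PTH against vehicle, Nfil3 at 1.04 in YKL-05-093 against vehicle, and 7 genes, all below 0, in PTH against YKL-05-093.

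The genes whose values across the 6 libraries ran closest to each of the 4 clock genes that passed were found by the root mean square difference of log2(RPKM + 0.1) values centred on the gene's own mean, among 11872 genes with at least 50 reads on average. For Per1 these were Daam1 (0.0825), Igsf10 (0.114) and Sox9 (0.133), and for Per2 they were Fhdc1 (0.0855), Slc39a14 (0.0872) and Elovl6 (0.0977). For Dbp they were Gnb4 (0.0388), Eef2k (0.0599) and Arhgap39 (0.0678). For Arntl they were Slc41a2 (0.0457), Bcat1 (0.0671) and A330021E22Rik (0.0721). With 6 points that share 3 treatments and the same depth differences, such closeness is a description only.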

How the data were processed

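RNA-seq was done on 6 libraries of total RNA from Ocy454 cells, 2 for each of vehicle, PTH and YKL-05-093. Per the study's methods the authors depleted ribosomal RNA, made stranded libraries, sequenced them on an Illumina HiSeq, aligned reads with STAR to mm10 and counted genes with HTSeq 0.6.0 on Ensembl release 75. The submitters' processing notes also name CASAVA 1.7. The strand setting of the counting and the gene lengths used are not given in the sources used here. The deposited values are RPKM per gene and library, which the authors did not scale further between libraries. The table of the series was used, and the single-library files, which hold the same values, were not. The values of all 26214 genes above 0 were whole multiples of the value of 1 read (within 0.001 reads). This gave the read total behind each library's RPKM values, 17505798 to 27983585 reads.

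The test covered genes that reached 0.5 RPKM in 2 or more of the 6 libraries. Each comparison was fitted alone on its 4 libraries with limma 3.58.1 (R 4.3.3) on log2(RPKM + 0.1), with the prior variance following the mean log2 number of recovered reads. Tests were two-sided and p-values were adjusted by Benjamini-Hochberg over all genes tested, with calls at an adjusted p under 0.05 and more than 2-fold. Groups came from the sample titles. Fold changes on this scale are smaller than true changes for low genes. Since the deposited unit is RPKM, the test was run on a log scale, with voom on the recovered reads as an alternative, and the count-based test of the study was not run.

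All 10 clock genes are named. Genes of the wider clock list are named where they passed in any comparison, and the Arntl and Clock paralogues and ROR genes are named regardless, except for 1 gene that is not reported here. Members and lists were chosen with earlier results of these data known. Alternatives were pseudocounts of 0.01 and 1, a filter of 0.1 RPKM or none, the spread modelled on the mean value, 1 fit of all 6 libraries, scaling by the median gene or by trimmed means, voom on the recovered reads, the replicate number as a block, and each library left out. Promoters came from RefSeq (GRCm38.p6), with 9 of 10 clock genes matched, and gene positions from GENCODE M21 (GRCm38). The Per2 promoter is not shown.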

Additional observations from a re-analysis of the deposited data

How the results depend on the processing

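Each group had 2 libraries, and the vehicle pair, which enters both comparisons with vehicle, differed more than the treated pairs did. None of the 10 clock genes was called more than 2-fold in any comparison under any alternative that kept all libraries. With a pseudocount of 1 the genes called overall were 55 (YKL-05-093 against vehicle) and 98 (PTH against YKL-05-093), and with the filter at 0.1 RPKM 57 in YKL-05-093 against vehicle. With no filter, 0 genes were called by limma in PTH against vehicle and 0 in YKL-05-093 against vehicle, where 2341 and 1735 had an unadjusted p under 0.05. The spread modelled on the mean value gave 160 calls for PTH and 6 for YKL-05-093 against vehicle. A single fit of 6 libraries gave 175 for YKL-05-093 against vehicle and 102 for PTH against YKL-05-093. The clock genes under an adjusted p of 0.05 in PTH against YKL-05-093, 4 as reported, were 1 with no filter, 2 with the spread on the mean value and 0 in the single fit. The cause was not tested.

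Leaving out 1 library at a time gave 14 to 671 calls over all genes for PTH against vehicle, 11 to 320 for YKL-05-093 against vehicle and 0 to 155 for PTH against YKL-05-093. The 0 is without PTH replicate 1 or PTH replicate 2, where 2132 and 2021 genes had an unadjusted p under 0.05 in limma. Clock genes under an adjusted p of 0.05 numbered 0 to 3, 0 to 3 and 0 to 1, and those called 0 to 1 in YKL-05-093 against vehicle. Over the alternatives, Per1 passed between treatments in 11 of 14, Arntl in 8, Dbp in 7 and Per2 in 6.

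Libraries with equal replicate numbers showed little shared deviation across genes (correlations -0.0336, -0.054 and -0.0494). This cannot show whether the libraries were prepared in pairs, and the replicate block is given only here. With the replicate block 441 genes were called in PTH against vehicle and 215 in YKL-05-093 against vehicle, 1 clock gene (Per1, adjusted p = 0.00628) passed in YKL-05-093 against vehicle, and Nr1d1 passed in PTH against YKL-05-093 (adjusted p = 0.0353).

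Some log2 differences near 0 changed sign. With values centred on the median gene these were Arntl2 for PTH against vehicle (0.021), Nr1d1 for YKL-05-093 against vehicle (0.023) and Clock between treatments (-0.019), and with trimmed-mean scaling 0.017, 0.011 and -0.011 in that order. With voom Nr1d1 stood at 0.0036. Without 1 library, PTH against vehicle ranged from -0.15 to 0.64 for Per1, -0.32 to 0.056 for Per2, -0.016 to 0.36 for Per3, -0.13 to 0.21 for Cry2, -0.23 to 0.31 for Nr1d2, -0.26 to 0.14 for Tef, -0.83 to 0.019 for Gsk3b, -0.21 to 0.79 for Rora and -0.044 to 0.030 for Arntl2. YKL-05-093 against vehicle ranged from -0.23 to 0.18 for Nr1d1, -0.071 to 0.47 for Nr1d2, -0.020 to 0.32 for Cry2, -0.58 to 0.27 for Gsk3b, -0.072 to 0.095 for Nampt and -0.085 to 0.29 for Npas2. Between treatments Clock ranged from -0.10 to 0.11 and Cry2 from -0.27 to 0.042.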
